A study of Cricetulus griseus with 24 samples.

Results

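Tubulin genes encode the subunits of microtubules. The tubulin genes described here are 8 named members, Tuba1a, Tuba1b, Tuba1c and Tuba4a (α-tubulins), Tubb2a, Tubb3 and Tubb6 (β-tubulins) and Tubg1 (γ-tubulin), and they were taken from the count table by gene symbol, without regard to case. Of these 8, 7 were among the 28037 genes of the table, and Tuba1a was not analysed here. Tubb2a had 2 counts over all libraries, both in A0 stationary culture 4, and was below the filter, so 6 members were tested. RNA of Chinese hamster ovary (CHO) cells was sequenced from 3 lines, each at exponential and at stationary growth phase. A0 is an antibody-producing clone of the CHO DG44 line, which carries a plasmid for the antibody heavy chain and another for the light chain with a neomycin resistance gene. A1 is its progeny, selected with stepwise increasing methotrexate (MTX) so that the transgenes were amplified. CHO-S is a separate CHO line. Its sample titles give the letters NDST, a number and the phase. What these letters stand for is not given in the sources used here, so a modification of this line is not known. A0 and A1 were grown as batch suspension cultures in serum-free medium, without neomycin, and each stands for 1 clonal lineage, so the MTX selection and other properties of the lineage cannot be told apart. The A0 groups had 4 cultures at each phase, and the A1 and CHO-S groups had 3 cultures at each phase. In the A0 exponential group, each culture had 2 libraries, which were summed, so that 24 libraries gave 20 cultures.

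Microtubules are hollow polymers of α- and β-tubulin heterodimers, which grow and shrink by addition and loss of dimers at their ends. They carry vesicles between the endoplasmic reticulum, the Golgi apparatus and the cell surface, and they form the mitotic spindle. γ-tubulin is not a part of the polymer wall but, in a ring complex at centrosomes, nucleates new microtubules. The isotypes within the α and β families differ mostly at their carboxy-terminal tails, where many modifications are placed, and Tubb3 is best known from neurons.

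The libraries held 1038026 to 14652646 counts on genes. The smallest, from CHO-S stationary culture 1, also stood apart by the share of reads outside genes, which was 32.8% there against at most 18.4% in any other library. Values without it are given beside the calls of named genes that rest on it. Of 9 neuronal markers, Snap25, Nefm and Elavl4 had no count in any group, and the sum of all 9 was between 0.835 and 2.501 CPM (counts scaled to library size) in every culture. The summed level of 5 blood cell markers was 3.06 to 4.56 CPM at exponential phase and 9.75 to 69.9 CPM at stationary phase, which came mostly from Cd68, a lysosomal protein. Vim, the vimentin gene of mesenchymal cells and CHO cells, was at 728 to 1465 CPM in all cultures. It was 1 of 6 listed fibroblast and CHO markers, which did not all have a high level. Lgals1 and S100a6 had group means of at least 770 and 319 CPM. The collagen genes Col1a1 and Col1a2 had group means of at most 0.46 and 0.14 CPM, and those of Col3a1 were 0.19 to 11.9 CPM.

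Between growth phases, most tested tubulin genes were lower in stationary than in exponential cultures, and Tubb3 passed the threshold in no line. In A0, 5 of the 6 tested members fell, where 37.6% of all tested genes changed and 20% fell. In A1, 5 of 6 fell, where 33.4% of all tested genes changed and 17.8% fell. In CHO-S, 4 of 6 fell, where 13.3% of all tested genes changed and 6.48% fell. The median log2 fold change of the 6 members was -0.60 in A0, -0.46 in A1 and -0.82 in CHO-S, against medians over all tested genes of 4.87e-05, 0.03 and 0.02. Without CHO-S stationary culture 1, 5 members fell in CHO-S (median -0.65), where 47.7% of all tested genes changed and 24.7% fell. With that culture kept, none of the members was called in CHO-S without any 1 of its exponential cultures, and 1 was called without stationary culture 2 or 3.

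Between lines, the members did not move as a group. In A1 against A0, 4 of 6 differed at exponential phase, where 25.7% of all tested genes did. Tubb6 was higher in A1 and Tuba1c, Tuba4a and Tubg1 were lower. At stationary phase 2 of 6 differed, Tuba1b and Tubb6, both higher in A1, and 33.7% of all tested genes did. The median log2 fold change of the members was -0.04 at exponential and 0.18 at stationary phase, against -0.04 and -0.0021 over all tested genes.

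Against CHO-S, Tuba4a was higher and Tubb6 was lower in both producing lines at both phases. In A0 against CHO-S, 4 of 6 members differed at exponential phase (49.2% of all tested genes) and 2 of 6 at stationary phase (40%). In A1 against CHO-S, 4 of 6 differed at exponential phase (57.2%) and 2 of 6 at stationary phase (34.8%). The members' share was thus near the share of all tested genes in each of these 4 comparisons. Without CHO-S stationary culture 1, 3 members differed between A0 and CHO-S and 5 between A1 and CHO-S at stationary phase, where 51.8% and 57.4% of all tested genes did. The calls gained in A1 were Tuba1b (0.20, adjusted p = 0.011), Tuba1c (-0.37, adjusted p = 2.4e-06) and Tubg1. The A0 and A1 comparisons with CHO-S share the CHO-S cultures. The A1 against A0 comparison shares the A0 cultures with A0 against CHO-S and the A1 cultures with A1 against CHO-S.

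**Figure D1:**
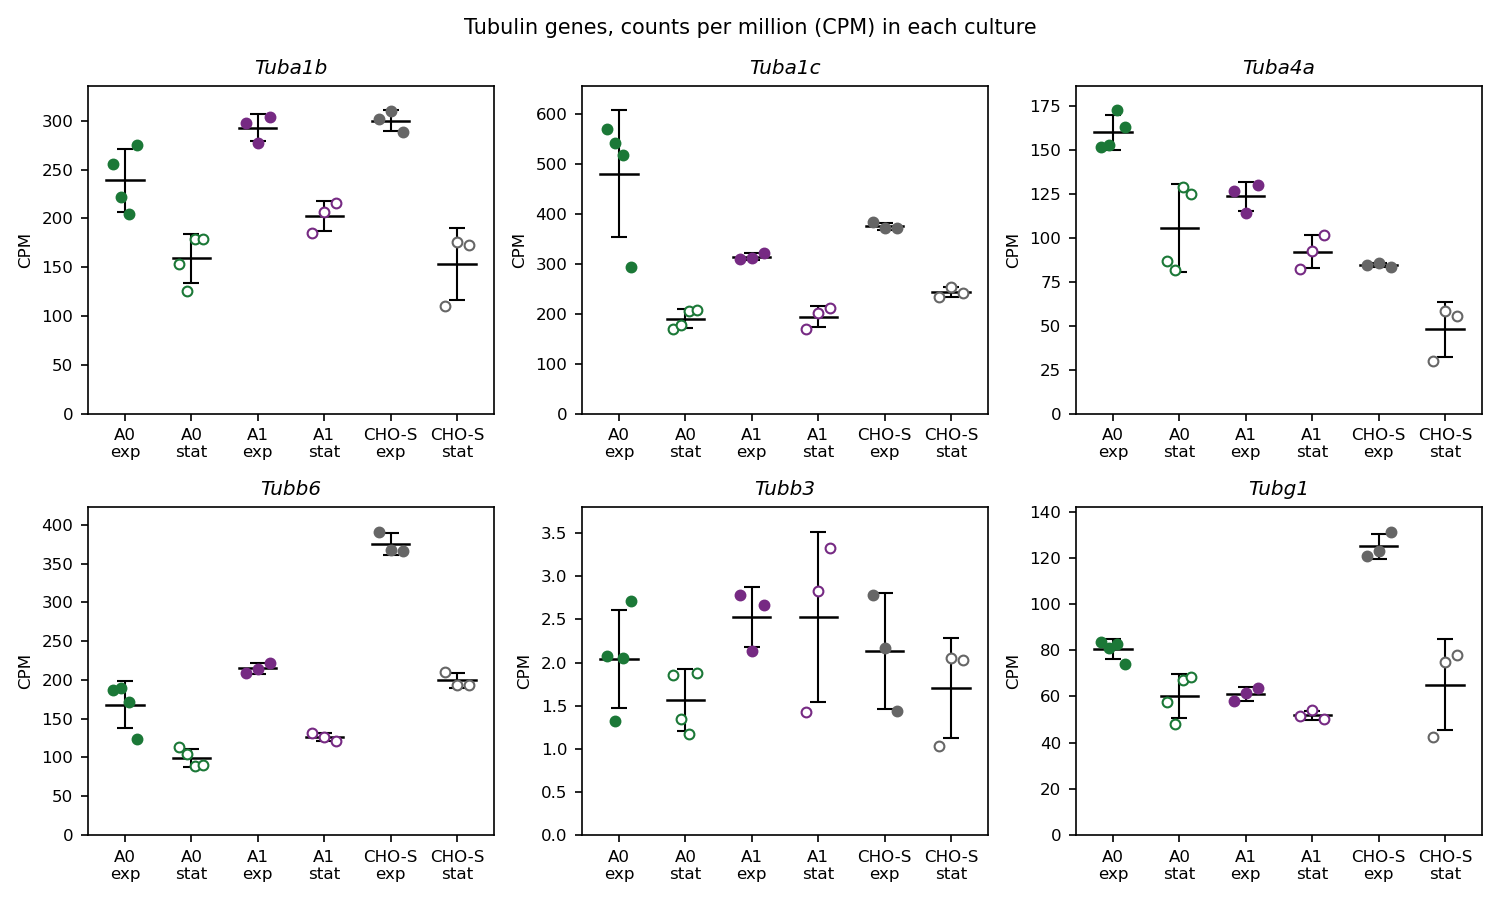
Level in CPM (vertical axes, starting at 0) of 6 tubulin genes in each of the 20 cultures, with filled points for exponential and open points for stationary phase, and with the mean and SD of each group in black. In every line the exponential cultures of Tuba1b, Tuba1c, Tuba4a, Tubb6 and Tubg1 lay above the stationary cultures of that line, while Tubb3 stayed between 1.03 and 3.33 CPM.

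Tuba1b encodes an α-tubulin that is found in most cell types. Its level in A0 was 256, 222, 204 and 275 CPM at exponential phase and 153, 126, 178 and 179 CPM at stationary phase. In A1 it was 297, 277 and 304 CPM at exponential phase and 185, 207 and 215 CPM at stationary phase. CHO-S had 302, 309.7 and 288 CPM at exponential phase and 110.4, 175 and 173 CPM at stationary phase. The order of the exponential means was A0, A1, CHO-S, and A1 and CHO-S overlapped. Within each line all exponential cultures lay above all stationary cultures.

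The stationary level of Tuba1b fell by 0.60 ± 0.12 (SE) on the log2 scale in A0 (adjusted p = 0.0011), by 0.51 ± 0.06 in A1 (adjusted p = 6e-08) and by 0.95 ± 0.18 in CHO-S (adjusted p = 0.017). Without CHO-S stationary culture 1 the fall in CHO-S was 0.78 ± 0.05, while the call in CHO-S was lost without any 1 of the other 5 cultures (adjusted p = 0.062 to 0.11). In A0 the value was -0.42 with cultures 3 and 4 alone (adjusted p = 0.086). Between lines, Tuba1b was lower in A0 than in CHO-S at exponential phase (log2 fold change -0.32 ± 0.10, adjusted p = 0.019) and higher in A1 than in A0 at stationary phase (0.34 ± 0.11, adjusted p = 0.024). The first call was lost in 5 of 16 alternatives, among them those without A0 culture 2, CHO-S culture 1 or CHO-S culture 2 (adjusted p = 0.0502, 0.059 and 0.085). Leaving out A1 culture 2 or culture 3 ended the stationary call (adjusted p = 0.084 and 0.12), as did fitting all 6 groups together (adjusted p = 0.074). At exponential phase the A1 against A0 difference was 0.29 ± 0.11 with no overlap of the cultures and an adjusted p of 0.055. It passed the threshold in 8 of 16 alternatives, among them DESeq2 (adjusted p = 0.039), and the adjusted p ranged from 0.0023 to 0.2 over these fits. A1 and CHO-S exponential cultures differed by -0.04 (95% interval -0.13 to 0.05).

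Tuba1c is an α-tubulin gene closely related to Tuba1b. The 4 A0 exponential cultures had 568, 541, 517 and 293 CPM, so that culture 4 lay at the level of A1, which had 308, 311 and 321 CPM. Both libraries of culture 4 were low, with 294 and 288 CPM. CHO-S exponential cultures had 383, 370.3 and 372 CPM. At stationary phase the levels were 169, 178, 205 and 206 CPM in A0, 169.8, 201 and 211 CPM in A1 and 233, 253 and 241 CPM in CHO-S. A0 and A1 overlapped there and CHO-S lay above both.

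The fall of Tuba1c to stationary phase was the largest of any member in A0, at 1.35 ± 0.16 on the log2 scale (adjusted p = 7.1e-06), or 2.55-fold. It fell by 0.67 ± 0.06 in A1 (adjusted p = 8.2e-10) and by 0.62 ± 0.11 in CHO-S (adjusted p = 0.014). The fall in CHO-S was 0.60 ± 0.04 without its stationary culture 1, and the call was lost without any 1 of the other 5 CHO-S cultures (adjusted p = 0.068 to 0.10). At exponential phase Tuba1c was lower in A1 than in A0 (-0.62 ± 0.17, adjusted p = 0.013) and lower in A1 than in CHO-S (-0.26 ± 0.04, adjusted p = 6.4e-06, or 0.24 with all 6 groups in 1 fit). The difference between A1 and A0 was lost without any 1 of the A1 cultures (adjusted p = 0.061 to 0.068) and with A0 cultures 3 and 4 alone (-0.37, adjusted p = 0.17), and over all alternatives it ranged from -0.83 to -0.37. A0 against CHO-S was 0.37 ± 0.17 (adjusted p = 0.09), and it passed the threshold without A0 culture 4, at 0.54 (adjusted p = 3.5e-05). At stationary phase A1 and A0 differed by 0.02 (95% interval -0.16 to 0.21). In A0 against CHO-S the stationary value was -0.37 ± 0.14 (adjusted p = 0.0504), and it passed without CHO-S culture 1, at -0.36 (adjusted p = 0.0076).

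Tuba4a encodes an α-tubulin that lacks the tyrosine which ends most other α-tubulin precursors. It had 152, 152, 172 and 163 CPM in A0 exponential cultures, 126, 114 and 130.1 CPM in A1 and 84.4, 85.7 and 83.2 CPM in CHO-S, and these 3 groups did not overlap. At stationary phase A0 had 86.9, 81.4, 129 and 125 CPM, with cultures 1 and 2 below cultures 3 and 4. A1 had 82.3, 92.4 and 101 CPM, and CHO-S had 29.9, 58.3 and 55.4 CPM, of which culture 1 was the lowest. All 7 stationary cultures of A0 and A1 lay above the 3 of CHO-S.

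At exponential phase Tuba4a was higher than in CHO-S by 0.93 ± 0.08 on the log2 scale in A0 (adjusted p = 3.5e-07) and by 0.55 ± 0.05 in A1 (adjusted p = 8e-09), and it was lower in A1 than in A0 (-0.37 ± 0.09, adjusted p = 0.0067). The last of these missed the threshold when A1 culture 2 was left out (adjusted p = 0.051) and with all 6 groups in 1 fit (adjusted p = 0.089). At stationary phase it was higher than in CHO-S by 1.06 ± 0.24 in A0 (adjusted p = 0.0059) and by 0.87 ± 0.23 in A1 (adjusted p = 0.02). Without CHO-S culture 1 these values were 0.91 (adjusted p = 0.0011) and 0.67 (adjusted p = 1e-11). With it, the A1 call was lost without any 1 of the A1 cultures (adjusted p = 0.052, 0.069 and 0.084), and the A0 call was lost with A0 cultures 1 and 2 alone (0.77, adjusted p = 0.082). The stationary A1 against A0 value was -0.21 ± 0.15 (adjusted p = 0.31), and it was 0.12 against A0 cultures 1 and 2 alone and -0.46 against cultures 3 and 4 alone (adjusted p = 0.00029). From exponential to stationary phase Tuba4a fell by 0.61 ± 0.14 in A0 (adjusted p = 0.0019) and by 0.40 ± 0.07 in A1 (adjusted p = 3.5e-05, or 0.099 with all 6 groups in 1 fit). In CHO-S the value was -0.75 ± 0.22 (adjusted p = 0.062), and without culture 1 it fell by 0.56 ± 0.06 (adjusted p = 2.1e-13).

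Tubb6, a β-tubulin gene of class V, differed most between the 6 groups. CHO-S had 391, 368 and 367 CPM at exponential phase, A1 had 208, 215 and 222 CPM and A0 had 187, 189, 172 and 124 CPM. At stationary phase CHO-S had 211, 194 and 194 CPM, A1 had 132, 126 and 122 CPM and A0 had 113, 105, 89.5 and 89.9 CPM. The order A0, A1, CHO-S held at both phases without overlap between lines, and A0 exponential culture 4 was again the lowest of its group.

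At exponential phase Tubb6 was lower than in CHO-S, with log2 fold changes of -1.15 ± 0.12 in A0 (adjusted p = 2.4e-06), which is 2.21-fold, and -0.81 ± 0.04 in A1 (adjusted p = 1.7e-13). At stationary phase the log2 fold changes were -1.02 ± 0.15 in A0 (adjusted p = 0.00039) and -0.68 ± 0.14 in A1 (adjusted p = 0.0062), and without CHO-S culture 1 they were -0.95 and -0.64. These 4 calls held in every alternative fit. Tubb6 was higher in A1 than in A0 by 0.35 ± 0.12 at exponential phase (adjusted p = 0.047) and by 0.34 ± 0.09 at stationary phase (adjusted p = 0.0087). The exponential call was lost with edgeR's filterByExpr as the filter (adjusted p = 0.052), with the first A0 libraries alone (0.31, adjusted p = 0.095), without A0 culture 3 (adjusted p = 0.088) and without any 1 of the A1 cultures (adjusted p = 0.11 to 0.18), while the stationary call held in all 15 alternatives. Tubb6 fell to stationary phase by 0.77 ± 0.13 in A0 (adjusted p = 0.00016), 0.75 ± 0.06 in A1 (adjusted p = 1e-11) and 0.91 ± 0.12 in CHO-S (adjusted p = 0.0049). The fall in CHO-S was 0.95 ± 0.05 without its stationary culture 1, and the call was lost without any 1 of the exponential cultures (adjusted p = 0.051 to 0.057).

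The size of the exponential Tubb6 difference can be set beside that between 2 libraries of the same A0 culture. In culture 1 the first library had 213 CPM of Tubb6 and the second, which is marked RLT, had 166 CPM, a log2 difference of -0.36. In culture 2, whose second library is also marked RLT, it was -0.16, and in cultures 3 and 4, whose second library is marked as a duplicate, it was 0.17 and -0.03. For Tuba1b the same differences were 0.39, 0.28, 0.06 and -0.02. The differences between the libraries of culture 1 were thus as large as the A1 against A0 differences of Tubb6 and Tuba1b. What the mark stands for is not given in the sources used here beyond its letters, and its part in the result was not tested.

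Tubb3 and Tubb2a were near the limit of detection. Tubb3, the β-tubulin used as a marker of neurons, had 1.32 to 2.72 CPM in A0, 2.13 to 2.78 CPM in A1 and 1.44 to 2.79 CPM in CHO-S at exponential phase. At stationary phase it had 1.17 to 1.87 CPM in A0, 1.42 to 3.33 CPM in A1 and 1.03 to 2.05 CPM in CHO-S. The lines thus overlapped at each phase, and the phases overlapped within each line. This was 1 to 64 counts per culture, and none of the 9 comparisons of Tubb3 passed the threshold in the main edgeR fit or in DESeq2. The value with the lowest adjusted p was A1 against A0 at stationary phase, at 0.74 ± 0.30 (adjusted p = 0.072, 95% interval 0.15 to 1.33). That difference passed in 2 of 15 alternatives. These were the culture number as a replicate block (0.83, adjusted p = 0.026) and the fit without A1 culture 1 (0.97, adjusted p = 0.024). In a later RefSeq gene list, the identifier of this row and that of the Tubb2a row carry provisional names, so the 2 assignments rest on the symbols of the deposited table.

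Tubg1, the γ-tubulin that nucleates microtubules, had 121, 123 and 131 CPM in CHO-S exponential cultures, 83.7, 81.0, 82.9 and 74.2 CPM in A0 and 58.0, 61.5 and 63.7 CPM in A1. The order CHO-S, A0, A1 was without overlap. At stationary phase the levels were 57.4, 48.2, 67.1 and 68.6 CPM in A0, 51.3, 54.1 and 50.02 CPM in A1 and 42.3, 75.0 and 78.0 CPM in CHO-S. CHO-S culture 1 was the lowest of these 10 cultures, and the 3 groups overlapped.

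Tubg1 was lower than in CHO-S at exponential phase, with log2 fold changes of -0.62 ± 0.08 in A0 (adjusted p = 1.6e-05) and -1.04 ± 0.05 in A1 (adjusted p = 9.4e-14), and it was lower in A1 than in A0 (-0.40 ± 0.09, adjusted p = 0.0041). These 3 calls held in every alternative fit. At stationary phase the log2 fold changes were -0.23 ± 0.11 in A1 against A0 (adjusted p = 0.13), -0.18 ± 0.21 in A0 against CHO-S (adjusted p = 0.53) and -0.39 ± 0.21 in A1 against CHO-S (adjusted p = 0.19). Without CHO-S culture 1, the A1 against CHO-S difference passed the threshold (-0.58 ± 0.08, adjusted p = 6.6e-10). Tubg1 fell to stationary phase by 0.43 ± 0.11 in A0 (adjusted p = 0.0062), 0.22 ± 0.07 in A1 (adjusted p = 0.015) and 0.90 ± 0.21 in CHO-S (adjusted p = 0.034). The call in A1 was lost without culture 3 of either phase (adjusted p = 0.079 and 0.071) and with all 6 groups in 1 fit (adjusted p = 0.35). Without stationary culture 1 the fall in CHO-S was 0.71 ± 0.06, while the call was lost without any 1 of the other 5 cultures (adjusted p = 0.082 to 0.15), and with A0 cultures 3 and 4 alone the value in A0 was -0.21 (adjusted p = 0.16).

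**Figure D2:**
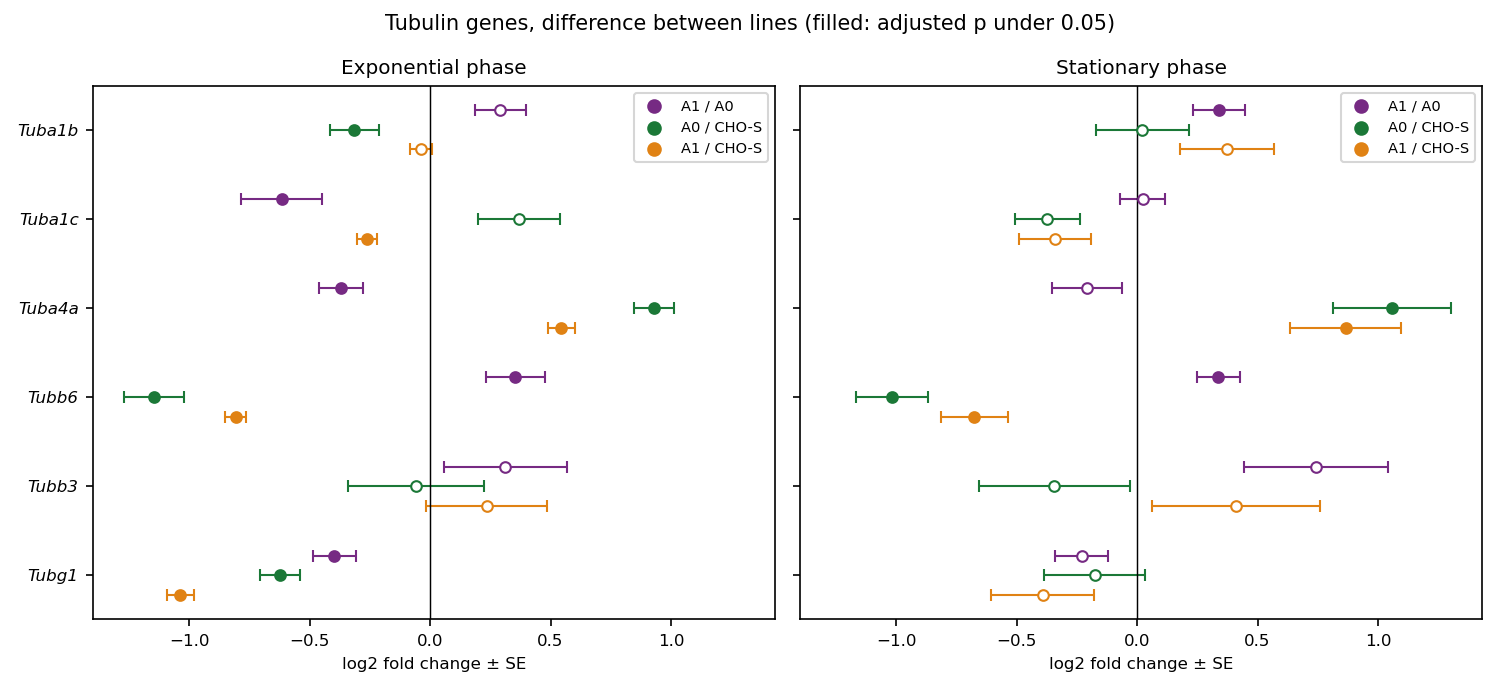
Log2 fold change (horizontal axes, with SE as bars) of 6 tubulin genes between lines at exponential (left) and stationary phase (right), filled where the adjusted p was under 0.05. Tuba4a lay to the right of 0 and Tubb6 to the left of 0 in both producing lines against CHO-S at both phases, and in A1 against A0 the filled points lay on both sides at exponential phase.

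**Figure D3:**
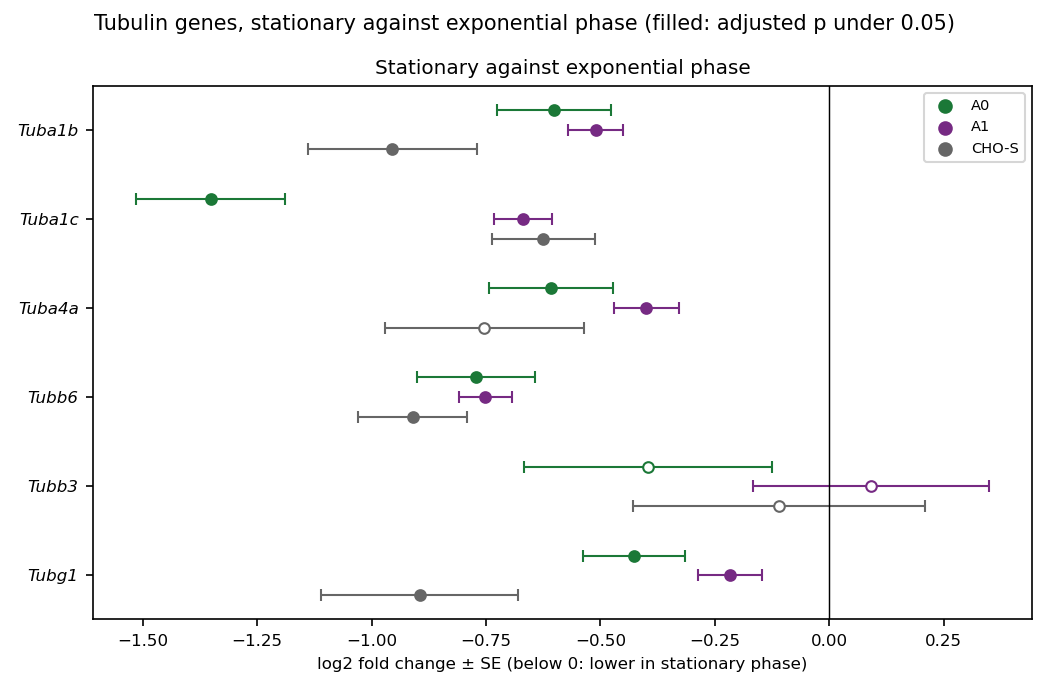
Log2 fold change of stationary against exponential phase (horizontal axis, with SE as bars) of 6 tubulin genes in A0, A1 and CHO-S, filled where the adjusted p was under 0.05. Tuba1b, Tuba1c, Tuba4a, Tubb6 and Tubg1 lay below 0 in all 3 lines, and the Tuba1c value of A0, -1.35, lay farthest from 0.

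Whether the phase difference itself differed between lines was tested as an interaction. None of the 6 members passed the threshold between A1 and A0 (8.92% of all tested genes did), between A0 and CHO-S (10.3%) or between A1 and CHO-S (7.6%). In each of the 3 tests, 1 member had an unadjusted p under 0.05 in edgeR and 1 member passed in DESeq2. Between A1 and A0 this was Tuba1c, with a log2 difference of 0.64 ± 0.21 (adjusted p = 0.056), a smaller fall in A1. With the culture number as a replicate block it was 0.60 (adjusted p = 1.1e-05), and without A0 culture 4 it was 0.86 (adjusted p = 7.3e-05), while with A0 cultures 3 and 4 alone the value was 0.29. Between A0 and CHO-S it was also Tuba1c, at -0.74 ± 0.25 (adjusted p = 0.065). Between A1 and CHO-S it was Tubg1, at 0.63 ± 0.20 (adjusted p = 0.078), and without CHO-S culture 1 both Tubg1 (0.50, adjusted p = 0.00011) and Tuba1b (0.25, adjusted p = 0.035) passed, where 23.1% of all tested genes did.

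Proliferation markers moved with the growth phase as well. The summed level of 15 such genes was 5437 to 6001 CPM in A0 exponential cultures and 1772 to 3005 CPM in stationary cultures, 5004 to 5111 and 3366 to 3647 CPM in A1, and 5179 to 5276 and 2967 to 3975 CPM in CHO-S, and none of the 15 was at 0 in any group. At stationary phase 13 of the 15 fell in A0, 13 in A1 and 7 in CHO-S, where 20%, 17.8% and 6.48% of all tested genes fell. Pcna, the DNA polymerase clamp, fell by 2.05 ± 0.15 on the log2 scale in A0, 1.09 ± 0.06 in A1 and 1.03 ± 0.21 in CHO-S, where the call was lost without any 1 of the cultures other than stationary culture 1 (adjusted p = 0.087 to 0.11). All 15 fell in CHO-S without its stationary culture 1, where 24.7% of all tested genes fell, and the Pcna value there was -1.27 ± 0.05. In stationary A1 against A0, 10 of the 15 were higher and none was lower (median log2 fold change 0.53), where 33.7% of all tested genes differed, and 7 passed in the A1 and A0 interaction (median 0.59), where 8.92% did. These marker counts are given for the main fit alone, and the summed levels above were spread more widely in A0 than in A1 stationary cultures. The part of the proliferation markers in the tubulin result was not tested. In such bulk samples, fewer cells of a kind and less RNA per cell cannot be told apart.

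The other tubulin genes of a list of 13 that had a row were Tuba8, Tubal3, Tubb, Tubb1, Tubb4a, Tubb4b, Tubd1 and Tube1. Tuba8, Tubal3 and Tubb1 had at most 7 counts in any culture. The identifier of the Tubb row had no match in the later RefSeq gene list, so its assignment rests on the symbol of the deposited table. Tubb, the class I β-tubulin of most dividing cells, had 1460.0, 1472, 1528 and 1260.3 CPM in A0 exponential cultures and 565, 501, 877 and 888 CPM in A0 stationary cultures. A1 had 1391, 1382 and 1485 CPM at exponential and 1037, 1132 and 1179 CPM at stationary phase. CHO-S had 1640.1, 1613 and 1593 CPM and, at stationary phase, 456, 854 and 859.8 CPM. In the stationary cultures all of A1 lay above all of A0, and A0 was split into cultures 1 and 2 and cultures 3 and 4 as for Tuba4a. The split was not particular to these genes. A0 stationary cultures 1 and 2 also lay below cultures 3 and 4 for Tuba1b, Tuba1c, Tubg1, Tubb4a, Tubb4b, Tubd1 and Tube1. For Tubb6 they lay above them.

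Tubb was higher in A1 than in A0 at stationary phase (0.65 ± 0.16, adjusted p = 0.0062), and at exponential phase the value was -0.01 ± 0.09 (adjusted p = 0.94). The difference between the phases itself differed (interaction 0.66 ± 0.20, adjusted p = 0.037), a call that was lost in 7 of 16 alternatives. These were the fits without A0 culture 1 or 2 (adjusted p = 0.083 and 0.099) or any 1 of the A1 cultures (adjusted p = 0.11 to 0.17), with A0 cultures 3 and 4 alone (0.31, adjusted p = 0.10) and with all 6 groups (adjusted p = 0.15). The proliferation markers, given above, were higher in the same comparison, and their part in the Tubb result was not tested. Tubb fell to stationary phase by 1.03 ± 0.16 in A0 (adjusted p = 8.7e-05), 0.33 ± 0.05 in A1 (adjusted p = 9.3e-06, or 0.29 with all 6 groups in 1 fit) and 1.15 ± 0.23 in CHO-S (adjusted p = 0.019). Tubb4b, a class IV β-tubulin, fell by 0.79 ± 0.13 in A0 (adjusted p = 0.00013) and by 0.69 ± 0.06 in A1 (adjusted p = 3.2e-10), and in CHO-S its value was -0.31 ± 0.19 (adjusted p = 0.32). Without CHO-S stationary culture 1, Tubb fell by 0.91 ± 0.04 in CHO-S and Tubb4b by 0.12 ± 0.04 (adjusted p = 0.014). The Tubb call in CHO-S was lost without any 1 of the other 5 cultures (adjusted p = 0.061 to 0.11).

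Tubb4a, the other class IV gene, had 10.5, 11.6 and 11.5 CPM in CHO-S exponential cultures, 6.14, 6.40 and 6.48 CPM in A1 and 3.95 to 4.55 CPM in A0, and the lines did not overlap. Its exponential log2 fold change against CHO-S was -1.38 ± 0.13 in A0 (adjusted p = 7.6e-07) and -0.82 ± 0.12 in A1 (adjusted p = 3.6e-06), the same order of lines as for Tubb6 at that phase. At stationary phase the Tubb4a values were -0.60 in A0 (adjusted p = 0.1) and -0.49 in A1 (adjusted p = 0.18), and the lines overlapped. CHO-S stationary culture 1 had 2.06 CPM, and the other CHO-S cultures, at 6.30 and 4.61 CPM, lay above all of A0 and A1. Tubd1, the δ-tubulin of centrioles, had a higher level in A0 than CHO-S did (0.74 ± 0.10 in exponential and 0.86 ± 0.19 in stationary cultures, adjusted p = 2.5e-05 and 0.0043), and likewise in A1 (0.76 ± 0.07 and 0.88 ± 0.15, adjusted p = 6.5e-10 and 0.0027). Tubd1 did not pass the threshold between phases in any of the 3 lines, with values of -0.08, -0.07 and -0.22. Tube1, the ε-tubulin of centrioles, fell to stationary phase in A0 (-0.60 ± 0.12, adjusted p = 0.00073) and in CHO-S (-0.85 ± 0.18, adjusted p = 0.021), and in A1 the value was -0.17 ± 0.10 (adjusted p = 0.19). Without CHO-S stationary culture 1, the stationary Tubd1 values against CHO-S were 0.88 in A0 and 0.84 in A1, and the Tube1 value in CHO-S was -0.76. The Tube1 call in CHO-S was lost without any 1 of the exponential cultures or stationary culture 3 (adjusted p = 0.12 to 0.14), and the stationary Tubd1 call in A0 with A0 cultures 1 and 2 alone (0.62, adjusted p = 0.051).

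**Figure D4:**
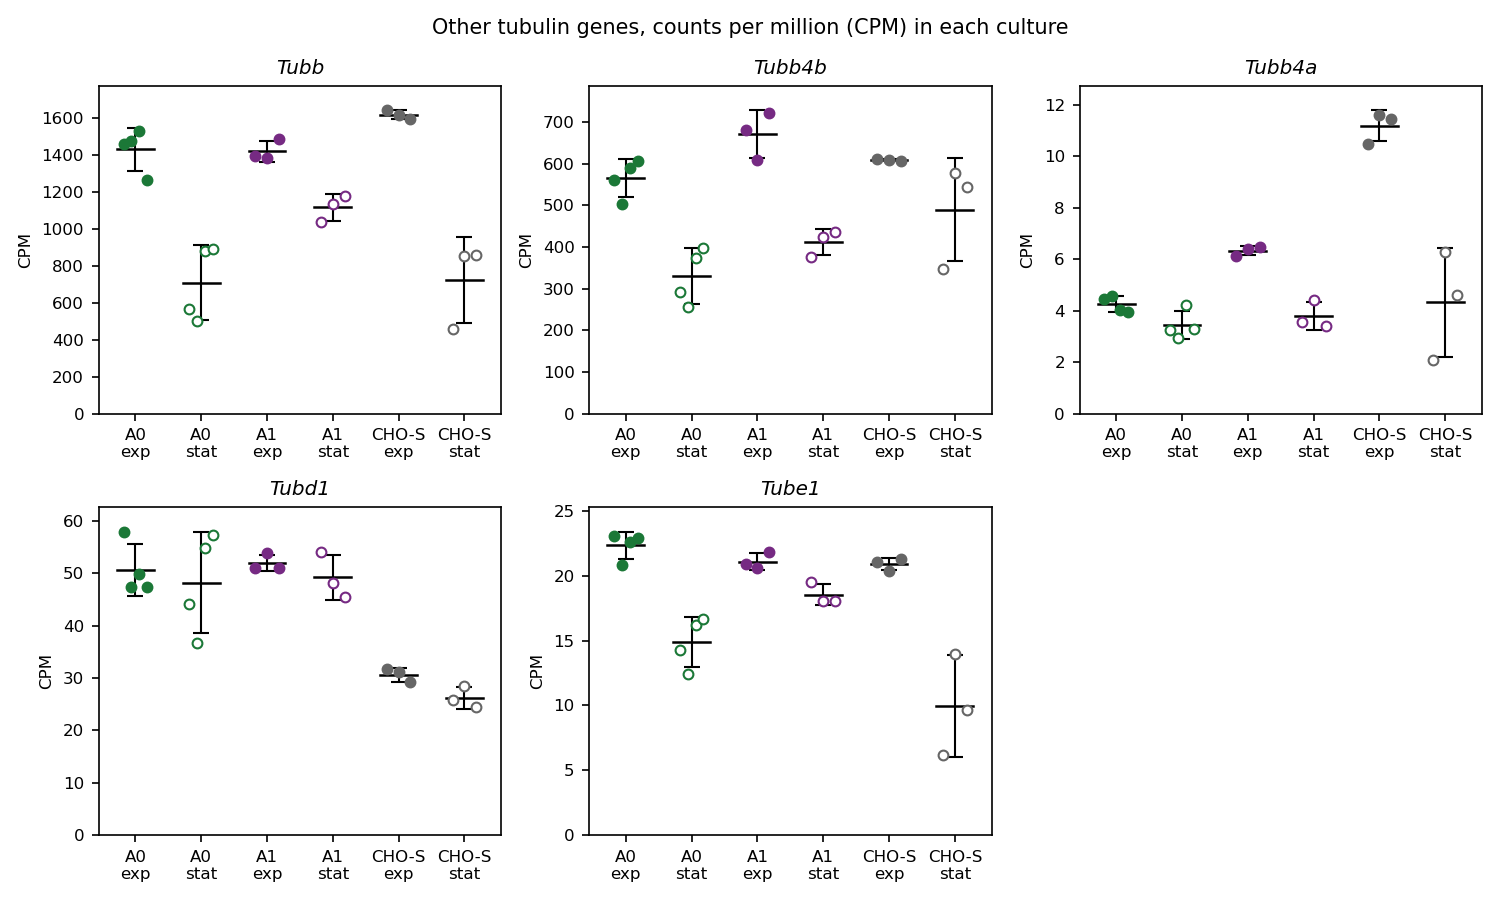
Level in CPM (vertical axes, starting at 0) of 5 further tubulin genes in each of the 20 cultures, with filled points for exponential and open points for stationary phase, and with the mean and SD of each group in black. Tubb stood at 1037 to 1179 CPM in the stationary A1 cultures and at 501 to 888 CPM in those of A0, and Tubd1 was higher in every A0 and A1 culture than in any CHO-S culture.

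Tubg1 acts with the γ-tubulin ring complex proteins and their anchors, of which 10 of 13 listed genes had a row. At stationary phase 6 of these 10 fell and 2 rose in A0 (median log2 fold change -0.34), 5 fell and 2 rose in A1 (-0.16) and 3 fell in CHO-S (-0.38), or 7 in CHO-S without stationary culture 1. Over all tested genes 37.6%, 33.4% and 13.3% changed, or 47.7% in CHO-S without that culture. Pcnt, the pericentrin scaffold of the centrosome, fell by 1.17 ± 0.17 in A0 (adjusted p = 4.4e-05), 0.31 ± 0.07 in A1 (adjusted p = 0.00055, or 0.24 with all 6 groups in 1 fit) and 0.99 ± 0.12 in CHO-S (adjusted p = 0.0042), where it was -0.98 ± 0.06 without stationary culture 1. The A1 against A0 interaction of Pcnt was 0.83 ± 0.22 (adjusted p = 0.016) and was lost without any 1 of the A1 cultures (adjusted p = 0.061 to 0.10). In A1 against A0, 2 were higher and 1 lower at exponential phase (25.7% of all tested genes differed) and 5 were higher and 1 lower at stationary phase (33.7%). Mzt1, a small ring complex subunit, was higher in A1 at exponential phase (0.90 ± 0.09, adjusted p = 6.1e-06), while Tubgcp3, a structural ring subunit, was lower (-0.57 ± 0.09, adjusted p = 0.00024), as Tubg1 was. Against CHO-S, Cdk5rap2, an activator of the ring complex, was higher in A1 by 0.65 ± 0.05 at exponential and 1.28 ± 0.15 at stationary phase (1.24 ± 0.08 without CHO-S culture 1).

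The α- and β-tubulin chains are folded by prefoldin, the chaperonin TRiC and the tubulin cofactors, a list of 24 genes. In A1 against A0, 1 was higher and 5 were lower at exponential phase (median 0.04), and 1 was higher and 8 were lower at stationary phase (median -0.07), shares near the 25.7% and 33.7% of all tested genes that differed. Cct7 and Cct6a, subunits of TRiC, were lower in A1 at stationary phase (-0.60 ± 0.07 and -0.44 ± 0.07). From exponential to stationary phase 7 fell and 3 rose in A0, 12 fell and 4 rose in A1 and 8 fell in CHO-S (15 fell and 4 rose there without stationary culture 1), where 37.6%, 33.4% and 13.3% of all tested genes changed (47.7% without that culture). Cct8, another TRiC subunit, fell by 0.73 ± 0.10 in A0 and by 0.63 ± 0.06 in A1. Against CHO-S, Pfdn1, a prefoldin subunit, was lower in both producing lines at both phases (-1.53 to -1.04), and Tbcb, a cofactor that binds α-tubulin, was higher (0.89 to 1.44). Without CHO-S stationary culture 1 the stationary values were -1.15 in A0 and -1.10 in A1 for Pfdn1 and 1.18 and 1.34 for Tbcb.

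Of 23 listed genes of tubulin modification, 21 had a row. In A1 against A0, 3 were higher and 2 lower at exponential phase, and 5 were higher and none lower at stationary phase, where 25.7% and 33.7% of all tested genes differed. Atat1, which acetylates α-tubulin, was lower in A1 at exponential phase (-0.63 ± 0.19, adjusted p = 0.025), a call that was lost without A0 culture 3 or A1 culture 1 or 2 (adjusted p = 0.071 to 0.13) and with the first A0 libraries alone (-0.41, adjusted p = 0.15), and Svbp, the partner of the vasohibins that remove the terminal tyrosine of α-tubulin, was higher at both phases (0.52 ± 0.13 and 0.63 ± 0.15). Vash2, a vasohibin, was lower than in CHO-S at exponential phase (-1.47 ± 0.13 in A0 and -1.56 ± 0.06 in A1), and Ttll4, a polyglutamylase, was higher by 0.88 ± 0.13 and 0.66 ± 0.06. Sirt2, a tubulin deacetylase, rose to stationary phase in A0 (1.01 ± 0.13) and A1 (0.87 ± 0.07).

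Among 31 genes that bind or sever microtubules, 4 were higher and 7 lower in A1 than in A0 at exponential phase, and 10 were higher and 8 lower at stationary phase, where 25.7% and 33.7% of all tested genes differed. Stmn1, the stathmin that holds free tubulin dimers, was at 301 CPM in A1 and 113 CPM in A0 at stationary phase (1.40 ± 0.20, adjusted p = 8.8e-05), and its phase difference differed between these lines (interaction 1.56, adjusted p = 0.00033). Map1s, a microtubule-associated protein, was lower in A1 than in A0 at exponential phase (-0.88 ± 0.16) and lower than in CHO-S in both lines at stationary phase (-2.70 ± 0.18 in A0 and -2.72 ± 0.20 in A1, or -2.82 and -2.88 without CHO-S culture 1). Map4, the main microtubule-associated protein of non-neuronal cells, was higher in A0 than in CHO-S at exponential phase (0.87 ± 0.09). From exponential to stationary phase 12 fell and 4 rose in A0 (median -0.23), 10 fell and 3 rose in A1 (median -0.10) and 4 fell and 2 rose in CHO-S (median 0.05), or 11 fell and 7 rose there without stationary culture 1. Over all tested genes 37.6%, 33.4% and 13.3% changed between phases, or 47.7% in CHO-S without that culture.

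Tubb6 and Tuba4a had the widest range of group means among the members, 1.92 and 1.79 on the log2 scale. The genes whose centred log2 CPM over the 20 cultures lay nearest to those of Tubb6 were Ndufa9, Znf384 and Cherp, with a root mean square distance of 0.20, 0.23 and 0.23, against an SD of 0.64 for Tubb6 itself. For Tuba4a they were Nif3l1, Gsr and Camkk2, at 0.18, 0.20 and 0.20 against an SD of 0.61. These genes were picked from 10588 by nearness alone, over cultures that fall into 6 groups.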

How the data were processed

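Poly(A) RNA libraries (TruSeq Stranded mRNA) were sequenced on a NextSeq. Per the labels and the study's methods, the authors aligned the reads with STAR 2.5.4b to the hamster assembly C_griseus_v1.0, counted them per gene with HTSeq-count 0.7.2 and deposited raw counts. Reads that align to more than 1 place (12.7% to 14.8% per library) were not counted, so near-identical tubulin copies lose reads and their levels are uncertain. The strand setting is not given in the sources used here, so overlapping genes are uncertain. The 5 summary lines of HTSeq-count stayed out of library sizes and tests.

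The members and gene lists were chosen with earlier results of these data known. The text names all members, every other tubulin in the table, and from each list up to 3 genes per comparison with the largest change past the threshold and at least 5 CPM. A further gene that the plan named is not reported here. Where only some comparisons are described, the genes named are among these. Levels are TMM-normalized CPM. They are not scaled by transcript length, so levels of different genes are not compared. The test was edgeR's quasi-likelihood test (version 4.0.16 in R 4.3.3, two-sided), run on every gene whose counts varied and reached 1 in 2 or more libraries, with p-values adjusted by Benjamini-Hochberg over all tested genes and a threshold of 0.05. Fits held the 2 groups compared, or 4 for interactions. All tested genes include many with few counts, so the shares called depend on the filter. With edgeR's filterByExpr, which keeps fewer genes, the share was 36.7% in A1 against A0 at exponential phase and 47.2% at stationary phase. In A0 against CHO-S at exponential phase it was 65.2%. The procedure was tested on simulated data with 2-fold changes and the same dispersion for every gene. Smaller changes, such as many of those given here, were not simulated. DESeq2 1.42.0 was an alternative. The labels do not say how cultures were separated beyond their numbers, so p-values measure the spread between these samples. In A0, same-numbered exponential and stationary cultures deviated together (correlation over 10588 genes 0.43, 0.32, 0.27 and 0.19). The same correlations were -0.13 to 0.18 in A1 and -0.005 to 0.12 in CHO-S, and -0.19 to 0.08 between lines. Differently numbered cultures were not compared, so these values cannot show whether the number itself pairs the cultures. RefSeq names come from the assembly CriGri-PICRH-1.0, so no coordinates or sequences are given. Figures were drawn with matplotlib 3.10.9.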

Additional observations from a re-analysis of the deposited data

How the results depend on the processing

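Of the tubulin calls between lines, Tubb6 against CHO-S at both phases and in A1 against A0 at stationary phase, Tuba4a against CHO-S at exponential phase and Tubg1 at exponential phase in all 3 comparisons passed the threshold under all alternatives. The number of members called moved by more than 1.5 times as follows. With all 6 groups in 1 fit it was 1 in A1 against A0 at stationary phase, 3 in the phase comparison of A1 and 1 in the A0 and CHO-S interaction. With A0 cultures 1 and 2 alone it was 1 in A0 against CHO-S at stationary phase, 3 in the A1 and A0 interaction and 1 in the A0 and CHO-S interaction. With A0 cultures 3 and 4 alone it was 4 in A1 against A0 at stationary phase and 3 in the phase comparison of A0. DESeq2 called 1 in each of the 3 interactions, and fitting without a filter called 1 in the A1 and A0 interaction. The replicate block gave 1 in the phase comparison of CHO-S and 1 in the A1 and A0 interaction. In the phase comparison of A0, where same-numbered cultures deviated together, it gave 5 as without it.

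Leaving out each culture in turn gave 1 to 5 members in A1 against A0 at exponential and 1 to 3 at stationary phase, 3 to 5 and 2 to 3 in A0 against CHO-S, 4 to 4 and 1 to 5 in A1 against CHO-S, 5 to 5, 4 to 5 and 0 to 5 in the phase comparisons of A0, A1 and CHO-S, and 0 to 1, 0 to 1 and 0 to 2 in the interactions of A1 and A0, A0 and CHO-S, and A1 and CHO-S. The lowest count of 0, in CHO-S, came without any 1 of the 3 exponential cultures while stationary culture 1 stayed in the fit.

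The sign turned in 33 fits, all of members that passed the threshold in neither fit. With A0 cultures 3 and 4 alone these were Tuba1c (-0.082) in A1 against A0 at stationary phase, Tubb3 (0.15) in A0 against CHO-S at exponential phase, and Tuba1b (-0.11), Tuba4a (-0.021) and Tubg1 (-0.026) in the A1 and A0 interaction. With A0 cultures 1 and 2 alone they were Tuba4a (0.12) in A1 against A0 and Tuba1b (-0.15) in A0 against CHO-S at stationary phase, Tubb6 (0.0092) in the A1 and A0 interaction, and Tuba4a (-0.11) and Tubb3 (0.031) in the A0 and CHO-S interaction. With the replicate block they were Tuba1b (-0.010) in A0 against CHO-S at stationary phase and Tubb3 (0.0034) in the phase comparison of CHO-S. In the A1 and A0 interaction Tubb6 was 0.016 without a filter and 0.031 with the first A0 libraries only, with which Tuba1b was -0.055. Leaving out 1 culture, the values ranged from -0.047 to 0.11 for Tuba1c in A1 against A0 at stationary phase, -0.29 to 0.18 for Tubb3 and -0.12 to 0.19 for Tuba1b in A0 against CHO-S, -0.14 to 0.30 and -0.32 to 0.15 for Tubb3 in the phase comparisons of A1 and CHO-S, -0.010 to 0.18 for Tuba1b and -0.073 to 0.057 for Tubb6 in the A1 and A0 interaction, and -0.10 to 0.038 for Tuba1c and -0.12 to 0.49 for Tubb3 in the A1 and CHO-S interaction. The cause of these changes was not tested. Tubb2a and Tubb3 had the lowest counts of the members, which limits the precision of their values.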
